A study of Mus musculus with 9 samples.

Results

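The Schlafen genes were read in macrophages sorted from fetal livers (FLs) with and without a Cre that deletes Xpr1. They were the 7 family members Slfn1, Slfn2, Slfn3, Slfn4, Slfn5, Slfn8 and Slfn9, found by matching Ensembl identifiers to symbols in a table of 13708 genes. All 7 had a row and all passed the filter on low values. They were chosen with the difference between the genotypes already known, so that difference is given for them as a description, without a p-value. Slfn10 and Slfn14, the other family genes with a row, were not among those chosen and are tested below. Of the 12 Slfn symbols in the annotation, Slfnl1, Slfn5os and Slfnlnc were not analysed here.

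Schlafen proteins are a mammalian family named after the German word for sleep, because early members were tied to the quiescence of T cells. Many of the genes are induced by type I interferon and by Toll-like receptor ligands, and several of the proteins bind or cleave tRNA. Mouse members fall into a short group with only the N-terminal Schlafen core (Slfn1, Slfn2), an intermediate group with an added linker domain (Slfn3, Slfn4) and a long group that also carries a helicase-like domain (Slfn5, Slfn8, Slfn9, Slfn10, Slfn14). In macrophages, Slfn4 is known as an interferon-induced gene of the myeloid lineage.

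Bulk RNA-seq was available for 9 samples of E15.5 FL macrophages, 5 from Mrc1Cre Xpr1fl/fl and 4 from Xpr1fl/fl embryos. Both groups carried Xpr1 alleles with exon 2 flanked by loxP sites, on strains backcrossed to C57BL/6JRj, and only the first carried 1 copy of Cre, placed with IRES, 2A and eYFP sequences in exon 30 of Mrc1, the gene of the mannose receptor CD206. Mrc1Cre is also active in endothelial cells, the sorted CD45+ F4/80hi CD11blow gate took in both Tim4hi and Tim4lo cells, and nothing names the embryos behind a sample, so the spread between samples may be technical. Xpr1, which encodes the phosphate exporter that loxP sites flank here, had 1162 ± 84.9 normalized counts in Mrc1Cre Xpr1fl/fl (SD, n = 5) and 1982 ± 205 in Xpr1fl/fl (SD, n = 4), without overlap, and Mrc1 itself had 7574 ± 1266 and 24693 ± 2674.

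The values are gene counts that the authors divided by normalization factors. Their totals of 26942921 to 28309443 per sample are set by that step, and the depth of the libraries is unknown. All 11 macrophage markers checked had a row. Adgre1, which encodes F4/80, had 46581 normalized counts in Mrc1Cre Xpr1fl/fl and 46008 in Xpr1fl/fl on average. Of the 11, however, 5 were lower in every Mrc1Cre Xpr1fl/fl sample than in every control (17.5% of all genes tested were) and fell in the fit described below (21.6% of all genes tested did). The log2 fold changes were −1.43 for Vcam1, −0.90 for Cd5l, −0.86 for C1qa, −0.85 for Timd4, which encodes Tim4, and −0.41 for C1qc. Column names of the table begin with 3 dates whose meaning is not given: Mrc1Cre Xpr1fl/fl sample 5 shares the earliest with Xpr1fl/fl samples 1 to 3, Xpr1fl/fl sample 4 has the middle one, and Mrc1Cre Xpr1fl/fl samples 1 to 4 the latest. Mrc1Cre Xpr1fl/fl sample 5 stood apart from the other 4 of its genotype in its summed neutrophil and granulocyte progenitor markers (18811 against 5128 to 8718 normalized counts), and Xpr1fl/fl sample 4 in its summed hepatocyte markers (59245 against 29452 to 32492).

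The family lies in 335 kb of chromosome 11 (GRCm39, 82842100 to 83177552). In order of position come Slfn5 (plus strand, 82842100 to 82855666), Slfn9 (minus, 82868552 to 82882656), Slfn8 (minus, 82892984 to 82911669), Slfn10 (minus, 82918956 to 82958140), Slfn2 (plus, 82955609 to 82961504), Slfn1 (plus, 83007615 to 83013496), Slfn4 (plus, 83066012 to 83081042), Slfn3 (plus, 83082123 to 83109101) and Slfn14 (minus, 83165936 to 83177552). Slfn4 and Slfn3 are therefore next to each other on the same strand. The bodies of Slfn10 and Slfn2 overlap on opposite strands, and the strand setting of the quantification is not given in the sources used here, so their reads may not be fully separated.

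Because the family is known for its response to interferon, the stretch from 250 bases before to 50 bases after the start of each gene's canonical transcript was searched on both strands for GAAA, any 2 bases and GAAA again, the core of the interferon-stimulated response element, to which the factor complex activated by type I interferon binds (read TTTC, 2 bases, TTTC on the other strand). It was found once each in Slfn5, Slfn8 and Slfn9, which is 3 of the 7 genes and 3 of the 9 family genes searched, against 835 of 21757 such stretches of protein-coding genes (3.84%). TTC, any 3 bases and GAA, the gamma-activated site of the interferon gamma response, was found in none of the 9 family genes and in 8.82% of all stretches. Sequences before the start are printed for the genes with a match and for Slfn4, the member with the largest genotype difference, which had none. They run 5′ to 3′ on the strand of the gene, in GRCm39, with the match in capitals. The canonical transcripts of Slfn5 and Slfn10 begin inside the gene spans given above, downstream of the outermost annotated start, and positions are counted from the transcript. The sequence of Slfn5 is cut where an exon of another of its transcripts begins.
Slfn5 (chr11:82842678-82842810, plus strand): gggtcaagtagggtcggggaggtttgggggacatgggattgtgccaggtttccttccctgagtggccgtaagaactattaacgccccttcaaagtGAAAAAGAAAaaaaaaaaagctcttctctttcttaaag
Slfn8 (chr11:82911670-82911919, minus strand): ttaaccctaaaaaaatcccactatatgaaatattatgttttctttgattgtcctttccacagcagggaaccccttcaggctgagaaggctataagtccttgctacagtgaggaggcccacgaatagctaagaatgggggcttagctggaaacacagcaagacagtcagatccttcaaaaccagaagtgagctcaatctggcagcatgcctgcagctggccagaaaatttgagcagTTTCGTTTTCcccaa
Slfn9 (chr11:82882657-82882906, minus strand): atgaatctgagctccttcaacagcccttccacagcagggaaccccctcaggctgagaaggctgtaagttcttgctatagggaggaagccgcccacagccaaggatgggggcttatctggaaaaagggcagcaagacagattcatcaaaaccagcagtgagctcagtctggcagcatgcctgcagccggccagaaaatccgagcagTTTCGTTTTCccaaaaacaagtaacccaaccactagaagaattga
Slfn4 (chr11:83065762-83066011, plus strand): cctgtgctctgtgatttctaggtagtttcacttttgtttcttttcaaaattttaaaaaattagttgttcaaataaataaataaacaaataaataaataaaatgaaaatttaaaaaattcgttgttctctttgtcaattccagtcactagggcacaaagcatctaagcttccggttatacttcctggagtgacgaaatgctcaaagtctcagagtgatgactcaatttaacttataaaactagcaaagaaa
The match begins 155 bases before the transcript start in Slfn5, 15 bases before it in Slfn8 and 45 bases before it in Slfn9. Slfn8 and Slfn9 hold the same 10 letters, and their windows share other stretches of up to 20 bases, so these are not separate finds. A match is a description of letters and no evidence of binding, and its absence from the window of Slfn4 says nothing about sites elsewhere.

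Slfn4 differed most between the genotypes. In Mrc1Cre Xpr1fl/fl samples 1 to 5 it had 641, 1479, 869, 952 and 1489.6 normalized counts. In Xpr1fl/fl samples 1 to 4 it had 121, 82.4, 174 and 41.7. The lowest Mrc1Cre Xpr1fl/fl sample was well above the highest control, and the ratio of the means was 10.4. On the log2(normalized count + 1) scale, used for every log2 fold change here, the difference was 3.47 (standard error 0.37). Samples 2 and 5 led the Mrc1Cre Xpr1fl/fl group and sample 1 was its lowest, while control 3 was the highest control and control 4 the lowest. The SDs of the log2 values were 0.52 in Mrc1Cre Xpr1fl/fl and 0.87 in Xpr1fl/fl.

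Slfn3, the closest relative of Slfn4 and its neighbour on the 3′ side, differed far less. Its normalized counts were 374, 428, 313, 352 and 267 in Mrc1Cre Xpr1fl/fl samples 1 to 5. They were 147, 229.7, 178 and 195 in controls 1 to 4. The genotypes did not overlap, and the log2 fold change was 0.88 (standard error 0.16).

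**Figure D1:**
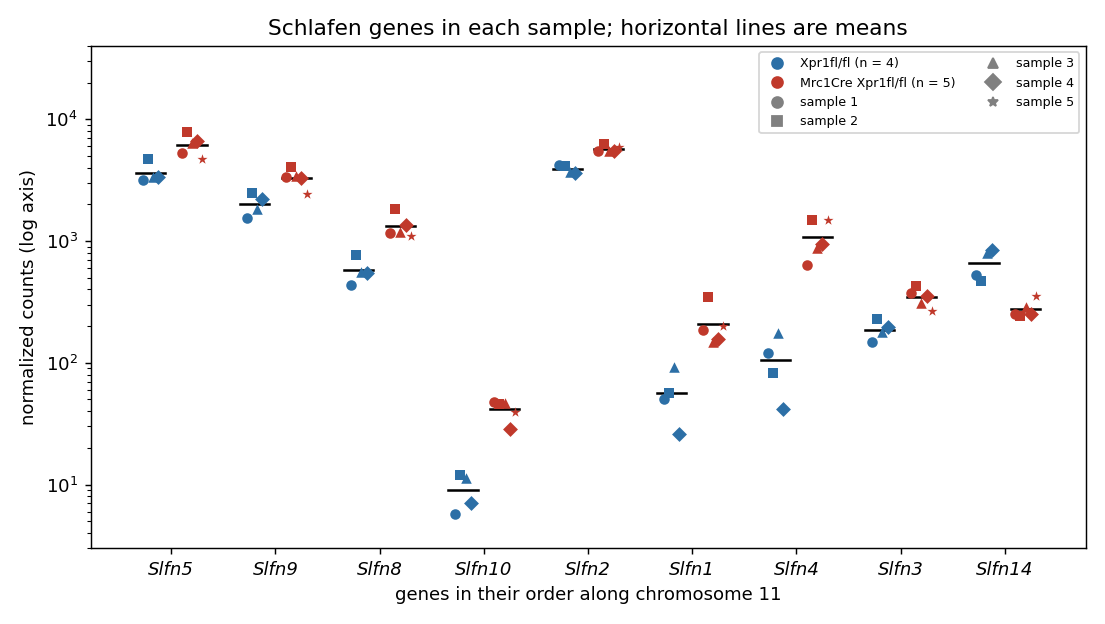
Normalized counts on a log axis for 9 Schlafen genes in their order along chromosome 11, with each sample as a point (blue, 4 Xpr1fl/fl; red, 5 Mrc1Cre Xpr1fl/fl; the marker shape gives the sample number) and the mean as a line. Slfn4 ran from 41.7 to 174 in the controls and from 641 to 1489.6 in Mrc1Cre Xpr1fl/fl, and Slfn14 alone was lower in Mrc1Cre Xpr1fl/fl.

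Of the short members, Slfn1, first described in the quiescence of T cells, came next after Slfn4 among the 7. Its normalized counts were 186, 344, 149, 157 and 201 in Mrc1Cre Xpr1fl/fl and 50.7, 56.8, 91.9 and 26.2 in Xpr1fl/fl. Sample 2 stood out at the top, no sample of one genotype reached the other, and the log2 fold change was 1.92 (standard error 0.33).
Slfn2, which protects tRNA from cleavage in activated T cells and keeps T cells and monocytes quiescent, had the smallest difference and the smallest spread. Its values were 5484, 6312, 5477, 5505 and 5965 normalized counts in Mrc1Cre Xpr1fl/fl and 4242, 4109, 3675 and 3592 in Xpr1fl/fl. The 2 groups were tight and apart, with a log2 fold change of 0.56 (standard error 0.07).

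Among the 3 long members of the 7, Slfn8 differed most. It had 1167, 1833, 1194, 1359 and 1091 normalized counts in Mrc1Cre Xpr1fl/fl and 436, 772, 560.2 and 548 in Xpr1fl/fl. All Mrc1Cre Xpr1fl/fl samples were above all controls, and the log2 fold change was 1.20 (standard error 0.17).
Slfn5, a nuclear member that takes part in interferon-regulated transcription, had 5289.7, 7896, 6432, 6633 and 4708 against 3189, 4719.7, 3353 and 3346 normalized counts. Slfn9, a close copy of Slfn8, had 3354, 4018, 3405, 3302 and 2439.6 against 1545, 2463, 1835 and 2218. In both genes the groups touched: Mrc1Cre Xpr1fl/fl sample 5, the lowest of its genotype, was just under control 2, the highest control. Their log2 fold changes were 0.76 (standard error 0.15) for Slfn5 and 0.72 (standard error 0.15) for Slfn9.

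Counted in the fit over all genes (limma, Benjamini-Hochberg adjusted p under 0.05), all 7 members were called higher in Mrc1Cre Xpr1fl/fl and 0 lower. In the same fit 21.5% of the 13594 genes tested were called higher and 21.6% lower, 43.1% in all. Those are 2926 and 2939 genes, or 1979 and 3739 with each sample scaled to its 75th percentile. Non-overlap with all Mrc1Cre Xpr1fl/fl samples on top was seen in 5 members and in 16.6% of all genes. The median log2 fold change was 0.88 over the members and 0.00 over all genes. As the members were picked from this contrast, their count says nothing beyond that choice.

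The sample with the highest value was shared by most members. Mrc1Cre Xpr1fl/fl sample 2 was the highest of its genotype for Slfn1, Slfn2, Slfn3, Slfn5, Slfn8 and Slfn9 and second for Slfn4. Control 2 was the highest control for Slfn3, Slfn5, Slfn8 and Slfn9. Slfn4 and Slfn1 were instead highest in control 3 and lowest in control 4. Slfn2 was highest in control 1. The same samples 2 had the lowest summed erythroid markers of their genotypes, at 45396 normalized counts in Mrc1Cre Xpr1fl/fl (of 45396 to 144204) and 196174 in Xpr1fl/fl (of 196174 to 310539). Of the 60 interferon pathway genes tested (listed below by role), 30 were highest of the genotype in Mrc1Cre Xpr1fl/fl sample 2, 32 in control 2 and 26 in both, against 2723, 2922 and 907 of all 13594 genes tested. The part of either in the order of the samples was not tested.

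Within a sample, the level of Slfn4 relative to the other genes of the cluster differed between the genotypes. Levels are compared here per kb of joined exons. The difference in log2 level per kb between Slfn4 and Slfn3 averaged −0.42 in Xpr1fl/fl (−1.65 to 0.55) and 2.17 in Mrc1Cre Xpr1fl/fl (1.36 to 3.06). Slfn4 was thus above Slfn3 in all 5 Mrc1Cre Xpr1fl/fl samples and in 2 of 4 controls. Against Slfn1, the neighbour on its 5′ side, the difference in log2 level went from −0.28 (−0.59 to 0.13) to 1.26 (0.66 to 1.76). Against Slfn8 it went from −2.72 to −0.44, and Slfn4 was above Slfn8 in Mrc1Cre Xpr1fl/fl sample 5 alone (0.35). Between the genotypes, the gap to each other member shifted in favour of Slfn4 by 1.54 (Slfn1), 2.28 (Slfn8), 2.60 (Slfn3), 2.73 (Slfn5), 2.77 (Slfn9) and 2.92 (Slfn2) on the log2 scale. For the family genes outside the choice the shift was 1.23 (Slfn10) and 4.70 (Slfn14). The gap to Slfn10 overlapped between the genotypes, at 2.51 to 4.33 in Xpr1fl/fl and 3.68 to 5.19 in Mrc1Cre Xpr1fl/fl.

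**Figure D2:**
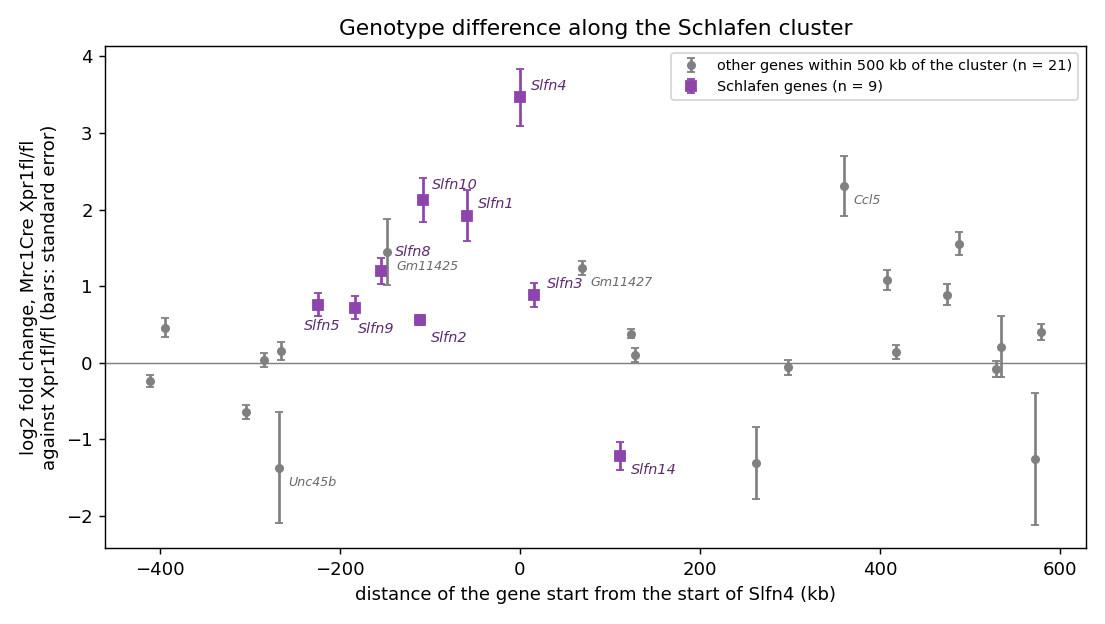
Log2 fold change between the genotypes (Mrc1Cre Xpr1fl/fl against Xpr1fl/fl; bars are standard errors of limma) against the distance of each gene start from the start of Slfn4 in kb, for 9 Schlafen genes (squares) and 21 other genes within 500 kb of the cluster (circles). Slfn4 stands at 3.47 and its neighbour Slfn3 at 0.88.

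Per kb of exon, Slfn2 was the most abundant member in both genotypes. In Xpr1fl/fl the mean levels in normalized counts per kb were 1959 (Slfn2), 564 (Slfn5), 304 (Slfn9), 140.4 (Slfn8), 28.4 (Slfn3), 27.9 (Slfn1) and 23.7 (Slfn4). The first 4 did not overlap over the 4 samples, while Slfn3 (22.2 to 34.8), Slfn1 (12.96 to 45.4) and Slfn4 (9.4 to 39.5) could not be ordered. In Mrc1Cre Xpr1fl/fl the order was Slfn2 (2884), Slfn5 (956), Slfn9 (498), Slfn8 (322), Slfn4 (246), Slfn1 (103) and Slfn3 (52.5). Here Slfn9 overlapped with Slfn8, Slfn8 with Slfn4, and Slfn4 with Slfn1, whereas Slfn3 (40.4 to 64.8) was below the range of Slfn1 (73.7 to 170.2). With the length of the longest transcript in place of the joined exons, Slfn3 (51.9 to 83.3) overlapped with Slfn1.

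The summed level of the 7 genes was 3048 ± 269 normalized counts per kb in Xpr1fl/fl (SD, n = 4) and 5062 ± 540 in Mrc1Cre Xpr1fl/fl (SD, n = 5), highest in sample 2 (6007). Slfn2 made up 64.4% ± 4.19 of it in the controls and 57.2% ± 3.51 in Mrc1Cre Xpr1fl/fl, with overlap between the groups. The share of Slfn4 was 0.79% ± 0.45 in the controls (0.33 to 1.37%) and 4.82% ± 1.497 in Mrc1Cre Xpr1fl/fl (3.12 to 6.99%). Slfn8 went from 4.58% to 6.31% without overlap and Slfn1 from 0.92% to 1.99%, with control 3 (1.57%) inside the Mrc1Cre Xpr1fl/fl range of 1.52 to 2.83%. The shares of Slfn5 (18.4% and 18.8%), Slfn9 (9.97% and 9.84%) and Slfn3 (0.93% and 1.04%) differed by less than their SDs.

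**Figure D3:**
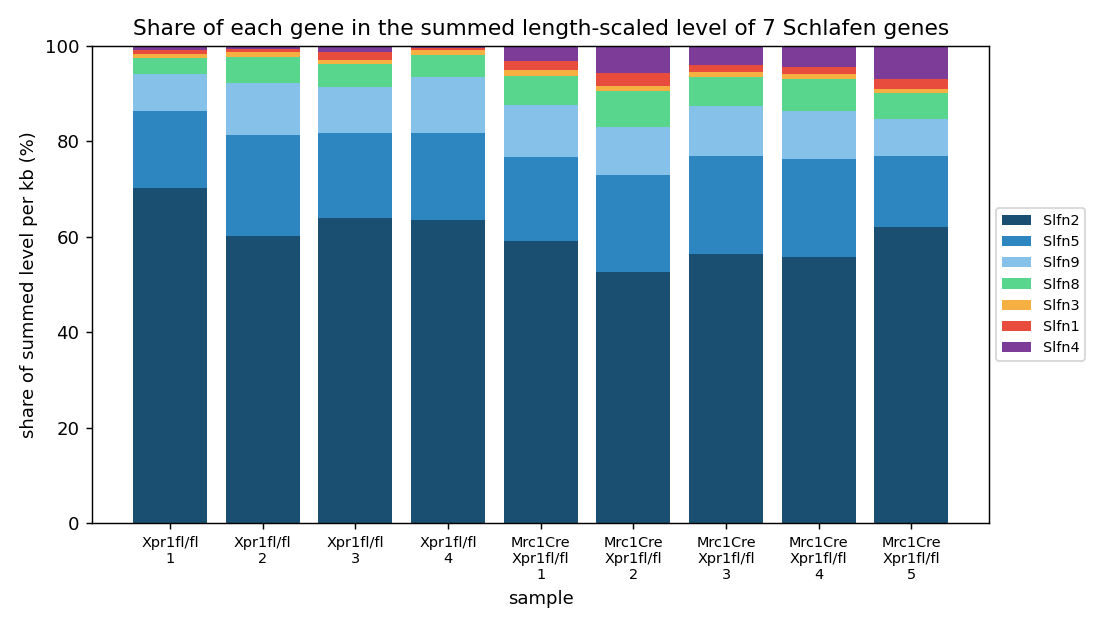
Share in percent of each gene in the summed level per kb of 7 Schlafen genes, with a bar for each sample (4 Xpr1fl/fl on the left, 5 Mrc1Cre Xpr1fl/fl on the right). The share of Slfn4 ran from 0.33 to 1.37% in the controls and from 3.12 to 6.99% in Mrc1Cre Xpr1fl/fl, while Slfn2 held more than any other gene in every sample.

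The 2 family genes outside the choice moved in opposite directions. Slfn10, a long member, was scarce, with 47.9, 45.8, 46.9, 28.5 and 39.1 normalized counts in Mrc1Cre Xpr1fl/fl and 5.76, 11.9, 11.3 and 7.06 in Xpr1fl/fl. It rose by 2.12 on the log2 scale (standard error 0.29, adjusted p = 0.00021 in limma with no filter on low values), with all Mrc1Cre Xpr1fl/fl samples above all controls. Controls 1 and 4 were below the filter of 10 normalized counts, so in the main fit Slfn10 passed it only through Mrc1Cre Xpr1fl/fl. The size depends on the pseudocount at these low values: with 10 in place of 1 it was 1.44, and a filter at 50 normalized counts leaves the gene out.
Slfn14, an endoribonuclease that acts on ribosomes and is best known from red cells and platelets, had 253, 242, 288, 251 and 352 normalized counts in Mrc1Cre Xpr1fl/fl and 531, 466, 795 and 838 in Xpr1fl/fl. It fell by 1.21 on the log2 scale (standard error 0.18, adjusted p = 0.000376 in limma), again without overlap.

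Slfn14 moved together with erythroid markers. All 9 erythroid genes measured fell, against 21.6% of all genes tested, with a median log2 fold change of −1.81 (0.00 over all genes), and the most abundant of them, the alpha globin gene Hba-a1, fell by 1.87 (adjusted p = 0.000389 in limma). Their summed normalized counts were 60357, 45396, 75623, 71354 and 144204 in Mrc1Cre Xpr1fl/fl and 257706, 196174, 310539 and 304796 in Xpr1fl/fl. The sample with the highest sum in Mrc1Cre Xpr1fl/fl, sample 5, was also the highest for Slfn14, and in both genotypes sample 2 was the lowest for both. Among the controls the highest differed: control 4 for Slfn14 and control 3 for the sum. In bulk RNA, fewer cells of a type and less RNA per cell cannot be told apart, and the part of erythroid RNA in the difference of Slfn14 was not tested. Megakaryocyte markers were also lower: 3 of 6 fell, 0 rose, and the most abundant, Pf4, fell by 1.76 (adjusted p = 7.79e-06 in limma).

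**Figure D4:**
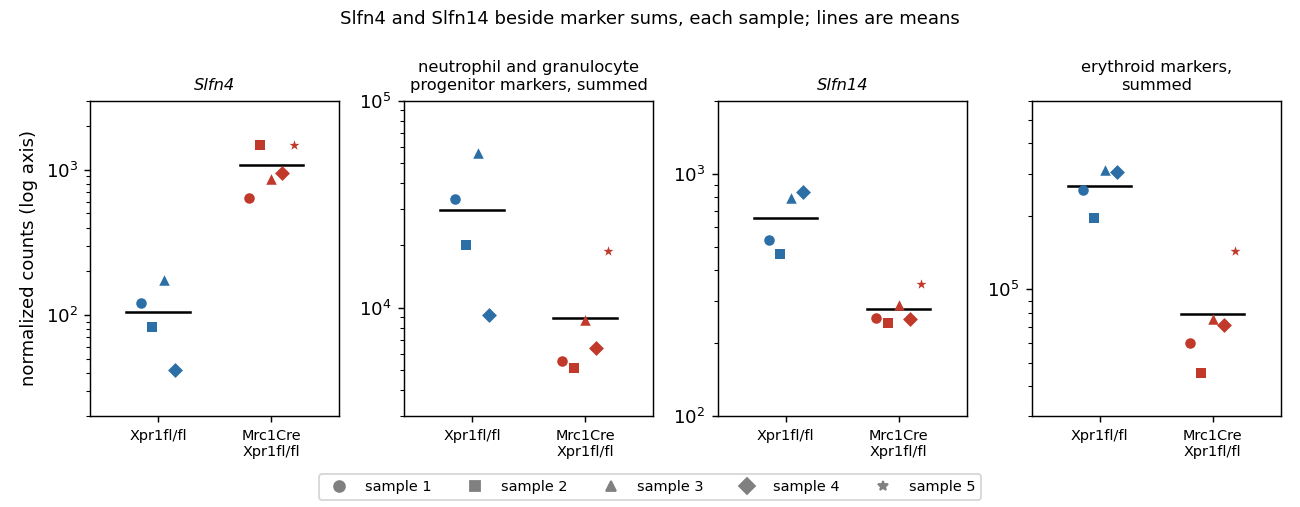
Normalized counts on log axes of Slfn4, of the summed neutrophil and granulocyte progenitor markers (11 genes), of Slfn14 and of the summed erythroid markers (9 genes), with each sample as a point (blue, 4 Xpr1fl/fl; red, 5 Mrc1Cre Xpr1fl/fl; shape gives the sample number) and the mean as a line. Slfn4 is higher and the neutrophil sum lower on average in Mrc1Cre Xpr1fl/fl, whereas Slfn14 and the erythroid sum are both lower in it.

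Slfn4 is also known from neutrophils and monocytes, so markers of these cells were read beside it. The summed neutrophil and granulocyte progenitor markers were 5524, 5128, 8718, 6408 and 18811 normalized counts in Mrc1Cre Xpr1fl/fl and 33483, 20219, 55577 and 9205 in Xpr1fl/fl. Of the 11 genes, 4 fell, 0 rose and 7 did not pass the test, where 21.6% of all genes tested fell and 21.5% rose, with a median log2 fold change of −1.42. S100a9, with the highest mean over all 9 samples, had a log2 fold change of −1.42 (adjusted p = 0.169 in limma). With each sample left out in turn, S100a9 ran from −2.34 to −0.85. It passed the test without control 4 (−2.34, adjusted p = 0.00678 in limma) and with the replicate block (−1.83, adjusted p = 0.0449). Mpo, the myeloperoxidase gene, which was picked after its values were seen because it was highest in the controls (7069 normalized counts against 7041 for S100a9), fell by 1.87 (adjusted p = 2.4e-05 in limma). The list was therefore lower on average where Slfn4 was higher. Within the controls the order of the samples (3, 1, 2, 4) was the same for Slfn4 and for the neutrophil sum, and in Mrc1Cre Xpr1fl/fl sample 5 was the highest for both, although sample 2 was second for Slfn4 and last for the sum. Of 8 monocyte markers, 4 fell and only Plac8 rose, by 0.91 (adjusted p = 0.000292 in limma). The monocyte sums of 7916 to 10617 and of 6997 to 9414 normalized counts overlapped. The part of these cells in the values of Slfn4 within a genotype was not tested.

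Slfn1 and Slfn2 are best known from lymphocytes. The counts of markers that follow stand beside 21.6% of all genes tested that fell and 21.5% that rose. The 4 T and NK markers analysed of 11 (Lck, Nkg7, Gzma and Il7r) all fell, and their sum was 55.3 to 80.6 normalized counts in Mrc1Cre Xpr1fl/fl and 164 to 315 in Xpr1fl/fl. Gzma, with means of 8.85 and 31.8, passed the filter on low values only through Xpr1fl/fl. Il7r, with the highest mean over all 9 samples, averaged 21.9 and 67.6, and Lck 24.1 and 50.9. Of 5 B cell markers 4 fell, and Cd79b, the most abundant, rose by 0.22 (adjusted p = 0.0346 in limma), a call lost when samples were scaled to their 75th percentile (adjusted p = 0.171), with quantile normalization (0.115), without trend (0.0583), with the date as a term (0.786) and in 5 of the 9 fits that left out a sample. Plasmacytoid dendritic cell markers, of which 2 of 4 analysed fell and 0 rose, were led by Flt3 at 59.5 and 199 normalized counts. The other that fell, Ccr9 (means of 7.66 and 21.0), passed the filter only through Xpr1fl/fl. Endothelial markers fell in 5 of 6 genes (Stab2, the most abundant, fell by 0.78) and hepatocyte markers in 6 of 6 (Alb fell by 1.11). Among the 11 macrophage markers 5 fell (Cd5l, with the highest mean over all 9 samples and in the controls, fell by 0.90), 0 rose and 6 did not pass the test, among them Csf1r (0.14, adjusted p = 0.155 in limma), the highest in Mrc1Cre Xpr1fl/fl. The T and NK and the dendritic sums were thus lower in the genotype with the higher Slfn1 and Slfn2, without overlap, while the B cell sums of 1731 to 2051 and of 1530.2 to 2322 overlapped.

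The genes around the cluster gave no single direction. Within 500 kb of its outermost members the annotation holds 89 other genes, of which 21 were tested. Of those, 9 rose, 3 fell and 9 did not pass the test (adjusted p under 0.05 in limma), against 21.5% and 21.6% of all genes tested, with a median of 0.16 on the log2 scale. Falls numbered 1 without control 1, without control 3 or with quantile normalization, and 5 without control 4. In each of these fits 9 rose. The nearest tested gene outside the cluster on the Slfn5 side was Unc45b, a myosin chaperone gene (log2 fold change −1.37, standard error 0.72, adjusted p = 0.149).
A pair of genes inside the cluster were singled out after their values were seen. Gm11427, a transcribed pseudogene between Slfn3 and Slfn14, had 648 normalized counts in Mrc1Cre Xpr1fl/fl and 275 in Xpr1fl/fl on average and rose by 1.24 (standard error 0.09, adjusted p = 7.82e-06 in limma). It shares 22.03% of its 31-base words with Slfn3 and 20.9% with Slfn4, so reads may be split between them. Gm11425, between the starts of Slfn8 and Slfn10, shares no such word with the family. It averaged 6.64 normalized counts in Xpr1fl/fl and was higher in Mrc1Cre Xpr1fl/fl by 1.45. Control values of 7.26, 5.24 and 2.01 were below the filter on low values, so Gm11425 passed it only through Mrc1Cre Xpr1fl/fl. Its difference is therefore given without a p-value, although it is among the genes counted above as risen. Farther out, also chosen after their values were seen, the chemokine genes Ccl5, Ccl4, Ccl9 and Ccl3 rose by 2.31, 1.55, 1.08 and 0.89, while Ccl6 between Ccl9 and Ccl3 had 0.14 (adjusted p = 0.221).

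The other genes of the interferon pathway were read by role, from lists written with earlier results of these data known. The 21 ligand genes on the list were not analysed here. Over the other lists 60 genes were tested, 36 rose and 7 fell, with a median log2 fold change of 0.35, beside 21.5% higher, 21.6% lower and a median of 0.00 over all genes tested. Without control 3, 34 rose and 4 fell.

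Of the 5 receptor genes tested 0 rose and 2 fell, where 21.5% of all genes tested rose and 21.6% fell. Ifnar2, a chain of the type I interferon receptor, fell by 0.16 (adjusted p = 0.0374 in limma). Il10rb, a chain shared by the type III interferon and IL-10 receptors, fell by 0.24 (adjusted p = 0.00959 in limma). The log2 fold changes of Ifnar1, the other type I chain, and of the interferon gamma receptor chains Ifngr1 and Ifngr2 were 0.09, −0.11 and 0.12, and did not pass the test (adjusted p = 0.301, 0.0953 and 0.173 in limma). The call of Ifnar2 was lost in 7 of the 9 fits that left out a sample, and Ifngr1 passed with samples scaled to their 75th percentile (−0.19, adjusted p = 0.00846). The 4 Janus kinase genes on the list stand beside the same shares of all genes. Jak1 rose by 0.21 (adjusted p = 0.0142 in limma), Jak3 fell by 0.27 (adjusted p = 0.00418) and the remaining 2 did not pass the test.

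Of the 14 STAT and IRF transcription factors analysed 8 rose, 2 fell and 4 did not pass the test, beside 21.5% and 21.6% of all genes tested. Irf7, which amplifies the interferon response, rose most, by 1.49, from 3418 ± 805 to 9478 ± 1463 normalized counts (SD, n = 4 and n = 5, adjusted p = 3.43e-05 in limma). Stat2 and Irf9, parts of the complex that binds the interferon-stimulated response element, rose by 0.80 (adjusted p = 0.00273) and by 0.22 (adjusted p = 0.00754). Irf5, which acts downstream of Toll-like receptors and had the highest mean normalized count of the list over all 9 samples (Irf7 in Mrc1Cre Xpr1fl/fl alone), rose by 0.37 (adjusted p = 0.000136). Stat3, Stat6 and Stat5b rose by 0.35, 0.22 and 0.22, Stat4 fell by 1.00 from 47.1 normalized counts, and Stat5a had 0.01 (adjusted p = 0.957). The calls of Irf9, Stat5b, Stat6 and Jak1 were lost with samples scaled to their 75th percentile (adjusted p = 0.0718, 0.0643, 0.0633 and 0.0742), where 4 factors rose, and that of Stat4 with quantile normalization (adjusted p = 0.0867) and without control 3 (adjusted p = 0.0567), where 0 factors fell. Leaving out 5 other samples, each in turn, left 1.

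Feedback genes rose in 6 and fell in 2 of 13 (4 rose without control 4), and the share of all genes tested was 21.5% higher and 21.6% lower. Usp18, which removes ISG15 and blocks the type I receptor, rose by 1.37 (adjusted p = 7.95e-05), the abundant phosphatase gene Ptpn6 rose by 0.38 (adjusted p = 0.000202), and the cytokine signalling suppressor gene Socs2 fell by 1.48 (adjusted p = 0.000321 in limma). Interferon-induced effectors that act on RNA and translation, as several Schlafen proteins do, rose in 21 of 24 genes and fell in 0, with a median log2 fold change of 0.82. Oas3, a sensor of double-stranded RNA of the oligoadenylate synthetase family, rose most, from 346 ± 138 to 2518 ± 720.3 normalized counts (log2 fold change 2.90, standard error 0.24, adjusted p = 1.26e-05). Trim25, a ubiquitin ligase gene of the RIG-I pathway with the highest mean normalized count of the list over all 9 samples (Oas2 in Mrc1Cre Xpr1fl/fl alone), rose by 0.45 (adjusted p = 0.0012), and Ifit1bl2 had the lowest value, −0.21 (adjusted p = 0.675). The log2 fold change of Slfn4 was above that of Oas3, and the other 6 members lay within the range of this list.

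**Figure D5:**
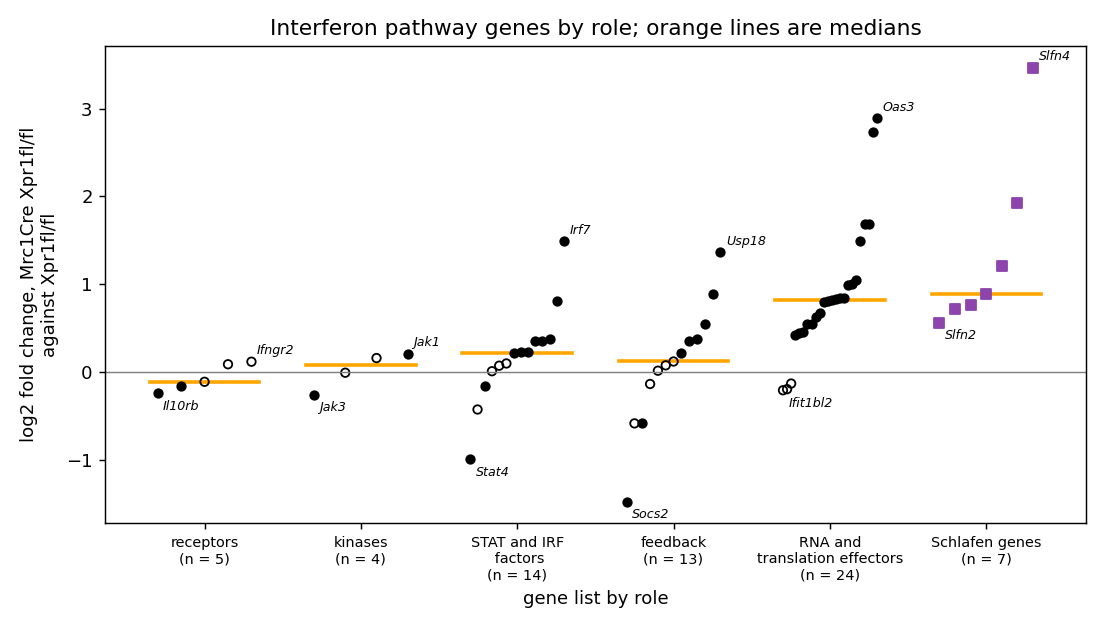
Log2 fold change between the genotypes (Mrc1Cre Xpr1fl/fl against Xpr1fl/fl) of interferon pathway genes by role and of 7 Schlafen genes, with each gene as a point (filled, adjusted p under 0.05 in limma; open, not passed; squares, Schlafen genes, shown without a test) and the median as a line. RNA and translation effectors have a median of 0.82 with Oas3 at 2.90, and receptors lie between −0.24 and 0.12.

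To find genes with a log2 profile like that of Slfn4, 11392 genes were compared with it. All had a mean of at least 50 normalized counts over the 9 samples. Each profile was taken relative to its own control mean. The measure was the root mean square difference, in which the genotype shift weighs most. The nearest were Anxa2r1 (0.59), a gene listed only as ENSMUSG00000062783 (0.80), Tgtp2 (0.81), Oas3 (0.83) and Oasl1 (0.91). ENSMUSG00000062783 passed the bound of 50 only through Mrc1Cre Xpr1fl/fl (116 normalized counts on average, 18.1 in Xpr1fl/fl). Tgtp2 encodes an interferon-induced GTPase and Oasl1 a relative of the oligoadenylate synthetases.
Anxa2r1 had 408, 844, 759, 805 and 803 normalized counts in Mrc1Cre Xpr1fl/fl and 117, 106, 50.8 and 35.8 in Xpr1fl/fl. Like Slfn4 it was lowest in Mrc1Cre Xpr1fl/fl sample 1 and in control 4. Control 3, however, was the highest control for Slfn4 and the second lowest for Anxa2r1. Among the Schlafen genes the rank by this measure was 18 for Slfn1, 109 for Slfn8, 230 for Slfn3, 313 for Slfn5, 405 for Slfn9, 550 for Slfn2 and 10891 for Slfn14. This is the order of their log2 fold changes, so the ranks restate the genotype difference. Slfn10, with a mean of 27.1 normalized counts over all 9 samples, was not ranked.

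The dates bear on these differences, since only the earliest holds both genotypes. With the date as a term in the fit, the genotype difference comes from Mrc1Cre Xpr1fl/fl sample 5 alone against controls 1 to 3, with the spread taken from the other samples, and 4.24% of all genes were called higher and 4.54% lower, and 2 of the 7 members (Slfn4 and Slfn2) higher. It was 3.62 for Slfn4, 1.63 for Slfn1, 0.93 for Slfn8, 0.58 for Slfn2, 0.55 for Slfn3, 0.35 for Slfn5 and 0.35 for Slfn9 on the log2 scale. Slfn4 and Slfn2 were as large as over all samples, and the differences of Slfn5 and Slfn9 were less than 2 times their standard errors of 0.23 and 0.21. For Slfn10, which passed the filter on low values only through Mrc1Cre Xpr1fl/fl, the difference was 1.97. For Slfn14 it was −0.72, and its call was lost. Of the interferon genes 12 rose and 0 fell, among them Oas3 (2.58, adjusted p = 0.00667), Irf7 (1.34, adjusted p = 0.0154) and Usp18 (1.17, adjusted p = 0.0323). The calls given above for Stat2 (adjusted p = 0.0948), Stat3 (0.278), Stat4 (0.372), Stat5b (0.698), Stat6 (0.102), Irf9 (0.191), Jak1 (0.683), Jak3 (0.140), Trim25 (0.289), Socs2 (0.106), Ifnar2 (0.268) and Il10rb (0.209) were lost. Of the erythroid genes 2 of 9 still fell, with a median of −0.95, and Hba-a1 had −0.80 (adjusted p = 0.128). Among the other marker lists the falls that were left numbered 2 of 11 macrophage, 1 of 8 monocyte, 4 of 11 neutrophil and granulocyte progenitor, 2 of 4 T and NK, 2 of 5 B cell, 1 of 6 megakaryocyte, 2 of 6 endothelial, 2 of 6 hepatocyte and 1 of 4 plasmacytoid dendritic genes, and 0 rose. Of the cluster neighbours 3 rose (Gm11427, Ccl9 and Ccl4) and 0 fell. For the samples of the other 2 dates genotype and date cannot be told apart.

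Near-identical copies within the family could exchange reads. In alignments of the coding sequences, Slfn3 and Slfn4 were identical at 91.85% of 1779 aligned bases, Slfn8 and Slfn9 at 92.7%, Slfn9 and Slfn10 at 93.2% and Slfn8 and Slfn10 at 92.8%, whereas Slfn1 and Slfn2 reached 71.3%. In the annotated transcripts, 11.65% of the 31-base words of Slfn4 also occur in Slfn3 and 7.78% in a transcript of the gene ENSMUSG00000121399 on the same chromosome (83115276 to 83151786), and 81.7% are found nowhere else. The share of words found nowhere else was 80.9% for Slfn3, 73.2% for Slfn8, 77.7% for Slfn9, 67.1% for Slfn10, 94.5% for Slfn5, 90.4% for Slfn2, 98.2% for Slfn1 and 99.95% for Slfn14. Values of Slfn3, Slfn4, Slfn8, Slfn9 and Slfn10 thus carry some uncertainty from how ambiguous reads were shared out.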

How the data were processed

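The deposited table holds a signal per gene: counts that the authors obtained from stranded mRNA libraries (45 ng of total RNA) with salmon on GRCm39 and tximport and then divided by DESeq2 factors; no tool versions are given in the sources used here. The 9 columns were matched to samples by name, and the lowest gene mean in the table is 5.79. Symbols, coordinates and exon lengths came from release 39 of the GENCODE mouse annotation (13698 of 13708 identifiers had a symbol). Since the values are not counts, log2(normalized count + 1) was fitted with limma 3.58.1 in R 4.3.3 (trend, Benjamini-Hochberg over all genes, threshold 0.05) over the 13594 genes that reached 10 normalized counts in 4 or more samples. On simulated data with independent noise and no date effect, the fit recovered 70 of 86 genes changed by 1 on the log2 scale. It recovered 104 of 108 changed by 2, with 11 false calls among 13402 genes. A far smaller share of genes changed there than was called here, so this gives no error rate for these data. Sequences were read from GRCm39 and compared with Biopython 1.88; identity is per aligned base of the coding sequences of the canonical transcripts. Named were all Schlafen genes with a row, Xpr1 and Mrc1, the nearest cluster neighbours, in each interferon list the extremes, the most abundant gene and all receptors, STATs and Irf9, the 5 genes nearest to Slfn4, and the most abundant gene of each marker list (by mean normalized count over all 9 samples, not per length); genes outside this are said to be chosen later or serve as examples of markers. Results of some genes under this rule are not reported here. The genes and lists were chosen with earlier results of these data known. Alternatives were other pseudocounts (0.5 and 10), filters (none and 50), scalings (75th percentile, quantile), limma without trend or with robust fitting, the replicate number as a block, the date as a term, the longest transcript as length, and each sample left out.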

Additional observations from a re-analysis of the deposited data

Results flagged for a closer look

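In 16 of 130 groups of 4 or 5 samples a sample lay apart from the others by Dixon's test at 95%, where chance alone gives about 6.5. Of the Schlafen values, Slfn1 was high in Mrc1Cre Xpr1fl/fl sample 2 (344.3 normalized counts, the others 149.1 to 201.3), the summed level per kb was high in the same sample (6007.1, the others 4651.3 to 4960.9), Slfn5 was high in Xpr1fl/fl sample 2 (4719.7, the others 3188.9 to 3353.1), and the share of Slfn9 in the summed level was low in Mrc1Cre Xpr1fl/fl sample 5 (7.62%, the others 10.04 to 10.9%).

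Mrc1Cre Xpr1fl/fl sample 2 was also high for Oas3 (3778.5, the others 2060.6 to 2430.2) and Oasl1 (2535.6, the others 1591.6 to 1797.9), and low for the summed T and NK markers (55.3, the others 73.6 to 80.6). Mrc1Cre Xpr1fl/fl sample 5 was high for Hba-a1 (85791.2, the others 25797.6 to 43152.1), S100a9 (4994.6, the others 907.5 to 1786.8) and the summed neutrophil and granulocyte progenitor markers (18811.3, the others 5128.2 to 8718.0), and low for Ifnar1 (4052.4, the others 4534.0 to 4657.6).

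Anxa2r1 was low in Mrc1Cre Xpr1fl/fl sample 1 (408.4, the others 758.9 to 844.0), and Ifngr2 was high in sample 3 of that genotype (3829.0, the others 3192.7 to 3370.1). Among the controls, Ifnar1 was low in sample 1 (3754.6, the others 4363.4 to 4445.7), Ifngr1 was high in sample 3 (8880.7, the others 7853.3 to 7922.6), and the summed hepatocyte markers were high in sample 4 (59244.6, the others 29452.1 to 32491.7).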

How the results depend on the processing

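Over 19 other settings the log2 fold changes kept their sign and ran from 3.09 to 3.77 for Slfn4, 1.61 to 2.23 for Slfn1, 0.93 to 1.35 for Slfn8, 0.55 to 1.08 for Slfn3, 0.35 to 0.89 for Slfn5, 0.35 to 0.82 for Slfn9 and 0.44 to 0.60 for Slfn2. With the date as a term, which leaves a single Mrc1Cre Xpr1fl/fl sample beside controls of its own date, 577 genes were called higher and 617 lower, 2 of the 7 Schlafen genes were called, 12 interferon genes rose and 0 fell, 3 cluster neighbours rose and 0 fell, and Slfn3, Slfn5 and Slfn9 dropped to 0.55, 0.35 and 0.35. Of 34 calls of other named genes 19 were lost there. Quantile normalization moved Slfn2 to 0.44, left 1 lower neighbour and lost 6 of the 34 calls, and scaling to the 75th percentile lost 5; the cause was not tested. Leaving out each sample in turn gave 2491 to 3050 genes higher, 2324 to 3031 lower, 7 Schlafen genes higher throughout, 33 to 36 interferon genes higher and 4 to 7 lower (4 without control 3), 9 neighbours higher throughout and 1 to 5 lower (1 without control 1 or control 3, 5 without control 4). S100a9 reached an adjusted p of 0.00678 in limma without control 4. With the length of the longest transcript, the level of Slfn3 was 67.5 in place of 52.5 per kb in Mrc1Cre Xpr1fl/fl and 36.5 in place of 28.4 in Xpr1fl/fl.

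Samples with the same number in both genotypes did not deviate together (r = −0.0333, 0.147, −0.0113 and −0.0313 for numbers 1 to 4, across genes), so the numbers do not pair them. With the replicate block, 3146 genes were called higher and 3080 lower, and all 7 Schlafen genes higher. The depth of the libraries is unknown, so the part of counting error in the spread cannot be given.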
